A study of Homo sapiens with 6 samples.

Results

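Replication-dependent histone genes encode the bulk of the proteins that package newly made DNA. They were followed in SEM cells, a human line grown from a B-cell acute lymphoblastic leukaemia (B-ALL) with the KMT2A::AFF1 fusion. The set held 56 genes, taken by symbol from the 62703 gene IDs of each count file: 5 linker histone H1 genes, 13 H2A, 16 H2B, 10 H3 and 12 H4 genes. All 56 were found under 1 ID each, 51 on chromosome 6 and 5 on chromosome 1, and 52 passed the filter on low counts. The knock-down group (KD, 3 libraries) had received 2 Dicer-substrate duplexes (DsiRNAs) directed at the back-splice junction of AK_8_2, a circular transcript of the fusion. The negative control group (NC, 3 libraries) had received a commercial non-targeting duplex. Both groups share the line and the lipid reagent, which was applied first in reverse and 24 h later in forward format. Values of the 3 libraries of a group are given below in the order of replicates 1, 2 and 3. Total RNA was sequenced after depletion of globin transcripts. The replicates are described as independent, without stating whether they are separate cultures, so p-values measure the spread between these libraries, which may be technical. The question put by the design is which transcripts differ when AK_8_2 is silenced. Gene counts hold no measure of AK_8_2 itself.

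Replication-dependent histone messenger RNAs are made in large amounts while DNA is copied and are removed when S phase ends. They are the metazoan messenger RNAs that end in a conserved stem-loop rather than a poly(A) tail. The stem-loop is bound by SLBP, and the end is cut with the help of the U7 small nuclear RNA. The genes lie in clusters, hold no introns in their usual short form, and are brought together at a nuclear body organised around NPAT. H2A, H2B, H3 and H4 form the nucleosome core, and H1 binds the linker DNA. Bulk RNA cannot tell fewer cells in S phase apart from less histone RNA per cell.

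The stem-loops are shown because they set these RNAs apart from nearly all others and carry the sequence difference between families. The 16-base histone stem-loop, searched on the transcript strand, was found in GENCODE 29 transcripts of 23 members. In all it occurred in 47 of 58676 genes with transcripts (0.0801%), and the H2A variant gene H2AX was among the 24 that are no members. Of the 33 members without it, 29 have models that stop within 3 bases of the coding bases, so the window does not reach the place of the element. The 26 bases below run 5′ to 3′ on the transcript, in GRCh38 coordinates, with the stem-loop in capitals.
H2AC8, chr6:26217412-26217437, plus strand: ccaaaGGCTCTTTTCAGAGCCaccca
H2AC11, chr6:27133510-27133535, plus strand: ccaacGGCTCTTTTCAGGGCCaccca
H2BC5, chr6:26158582-26158607, plus strand: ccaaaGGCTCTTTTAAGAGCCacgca
H3C6, chr6:26225591-26225616, plus strand: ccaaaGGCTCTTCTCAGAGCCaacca
H4C5, chr6:26204996-26205021, plus strand: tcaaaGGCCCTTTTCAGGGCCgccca
H4C9, chr6:27139649-27139674, plus strand: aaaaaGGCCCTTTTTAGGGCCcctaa

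The form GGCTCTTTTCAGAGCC was the most frequent, in 11 genes of the H2A, H2B and H3 families. A form with another loop base, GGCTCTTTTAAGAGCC, stood in 4 genes of H2B and H3. All 6 H4 genes with the element had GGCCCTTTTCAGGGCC (4 genes) or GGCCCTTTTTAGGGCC (2 genes), forms found in no member of the other families. In 22 of the 23 genes the 6 outer bases on each side were fully complementary, and H2AC11 was the exception.

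The promoters are shown because most hold TATAA and the families differ in other short motifs. RefSeq promoters (GRCh38.p14, 250 bases before to 50 after the start) were at hand for 51 members. TATAA was present on either strand in 49 of them (96.1%), against 21.1% of all 27305 RefSeq promoters. A match may lie anywhere in the window, so TATAA need not stand near the start. The 150 bases printed below for H3C3 hold none. CCAAT was present in all 5 H1, 12 H2A, 16 H2B and 8 H3 promoters and in 3 of 10 H4 promoters, against 35.7% of all promoters. ATTTGCAT, the octamer read by POU factors such as POU2F1, was present in 13 of 16 H2B and 10 of 12 H2A promoters, in 1 H3 promoter and in none of H1 or H4, against 1.80% of all promoters. The H3 promoter is that of H3C4, for which RefSeq gives the same window as for H2AC7, so 1 window is counted under both families. GGTCCG, part of the H4 element read by HINFP, was present in all 10 H4 promoters and in 1 promoter each of H2A, H2B and H3, against 11.2% of all promoters. No motif contains another, and a match is a description of these windows only. The 150 bases before the start are given for an H2B, an H3 and an H4 gene, with these motifs in capitals.
H2BC11, chr6:27132796-27132945, minus strand: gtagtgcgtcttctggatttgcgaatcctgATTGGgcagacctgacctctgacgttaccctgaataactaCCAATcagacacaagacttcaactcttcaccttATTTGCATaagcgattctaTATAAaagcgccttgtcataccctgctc
H3C3, chr6:26045234-26045383, plus strand: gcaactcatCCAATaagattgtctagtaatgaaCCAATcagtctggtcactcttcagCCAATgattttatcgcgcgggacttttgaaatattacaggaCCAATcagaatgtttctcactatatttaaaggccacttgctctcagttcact
H4C5, chr6:26204460-26204609, plus strand: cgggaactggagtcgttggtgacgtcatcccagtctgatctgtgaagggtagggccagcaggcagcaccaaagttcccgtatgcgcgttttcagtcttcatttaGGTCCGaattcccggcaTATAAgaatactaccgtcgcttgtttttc

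The octamer count in H2A partly repeats that in H2B, because divergent pairs share bases of their promoter windows. Among members with a RefSeq promoter, 9 pairs of an H2A and an H2B gene start 194 to 248 bases apart on opposite strands. The TATAA and CCAAT counts of these families can repeat in the same way. The GGTCCG matches counted for H2A and H2B lie in bases shared by the pair of H2AC20 and H2BC21.

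Gene counts totalled 14750579 to 26694160 per library. The B-cell label was met by PAX5 (850 to 1258 CPM, read counts scaled to the TMM-normalised library size) and CD79A (130 to 170 CPM), while DNTT (0 to 1.74 CPM) and RAG1 (0.393 to 3.92 CPM) were low. Of the 11 B-cell precursor markers, 10 had a count in every library, with sums of 3045 to 3892 CPM in KD and 3095 to 3865 CPM in NC. The 4 T-cell markers summed to 0.0786 to 5.18 CPM in KD and 0.175 to 7.90 CPM in NC, and the 4 erythroid ones to 0 to 0.788 CPM in KD and 0 to 0.870 CPM in NC. The 4 myeloid markers summed to 5.58 to 11.9 CPM in KD and 5.57 to 10.4 CPM in NC, and the 4 epithelial and fibroblast ones to 4.95 to 22.1 CPM in KD and 3.48 to 21.1 CPM in NC. The highest sums of the 4 non-B lists were in replicate 1, whose libraries also had 50.03% (KD) and 48.6% (NC) of their records outside annotated features, against 11.3% to 17.3% in the other libraries. In KD replicate 3 the mitochondrial ribosomal RNAs took 6.79% of the gene counts, against 0.293% to 1.34% in the other libraries. Records aligned to several places made up 31.5% of that library, against 4.70% to 17.3% in the others.

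Histone RNA was abundant in SEM and spread over many gene copies. The 56 genes took 1.27%, 2.19% and 1.66% of the gene counts in KD and 1.30%, 2.19% and 2.14% in NC. H2B held the largest part of the histone counts in every library, 31.9% to 34.6%, while each of the other families held between 13.9% and 20.5%. Levels between genes are given as CPM per kb of coding sequence, since gene models differ in whether they run past the stem-loop. Where the annotation used for counting held such an extension, reads in it raise the value per kb. On that scale 23 of the 52 tested genes were above 1000 CPM per kb in NC, and the 10 highest held 37.0% of the sum.

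H4C5 (chromosome 6, 26204552 to 26206038, plus strand, GENCODE 29) was the highest, at 2958 ± 1117 CPM per kb in KD and 3168 ± 1188 CPM per kb in NC (SD, n = 3 each). Its GENCODE model has 309 coding bases and runs 1022 bases past the stem-loop, and the part of reads there in its rank was not tested. Next in NC came H3C3, at 1726 ± 568 CPM per kb in KD and 1800 ± 629 CPM per kb in NC (SD, n = 3 each). The highest H2B gene was H2BC12, at 1649 ± 524 CPM per kb in KD and 1738 ± 505 CPM per kb in NC (SD, n = 3 each). H2BC18 (1657 ± 463 CPM per kb in NC) and H2BC5 (1646 ± 585 CPM per kb in NC) followed within the H2B family. The order of H2BC12 and H2BC18 rests on the 378 and 403 coding bases of their models, since H2BC18 was higher in CPM, at 649 against 623 in KD and 668 against 657 in NC. Coding length joins the coding bases of all models of a gene. H2BC11 (416) and H2BC15 (500) also exceed the 378 bases of the other H2B genes, which lowers their values per kb. H1-5 led the linker histones, at 1544 ± 356 CPM per kb in KD and 1555 ± 364 CPM per kb in NC, and H2AC8 led H2A, at 1398 ± 466 CPM per kb in KD and 1447 ± 578 CPM per kb in NC (SD, n = 3 each). Among tested members the medians over genes in NC were 1226 CPM per kb for H1, 781 for H2A, 982 for H2B, 789 for H3 and 581 for H4. Only 5 of the 55 steps between neighbours in the order of NC levels were larger than the larger SD of the 2 genes, and the step from H4C5 to H3C3 was 1 of them. These SDs hold the low level that the members share in replicate 1. Within libraries the order was nearly the same, with Spearman correlations of 0.974 to 0.996 between libraries over the 56 genes, given as a description.

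**Figure D1:**
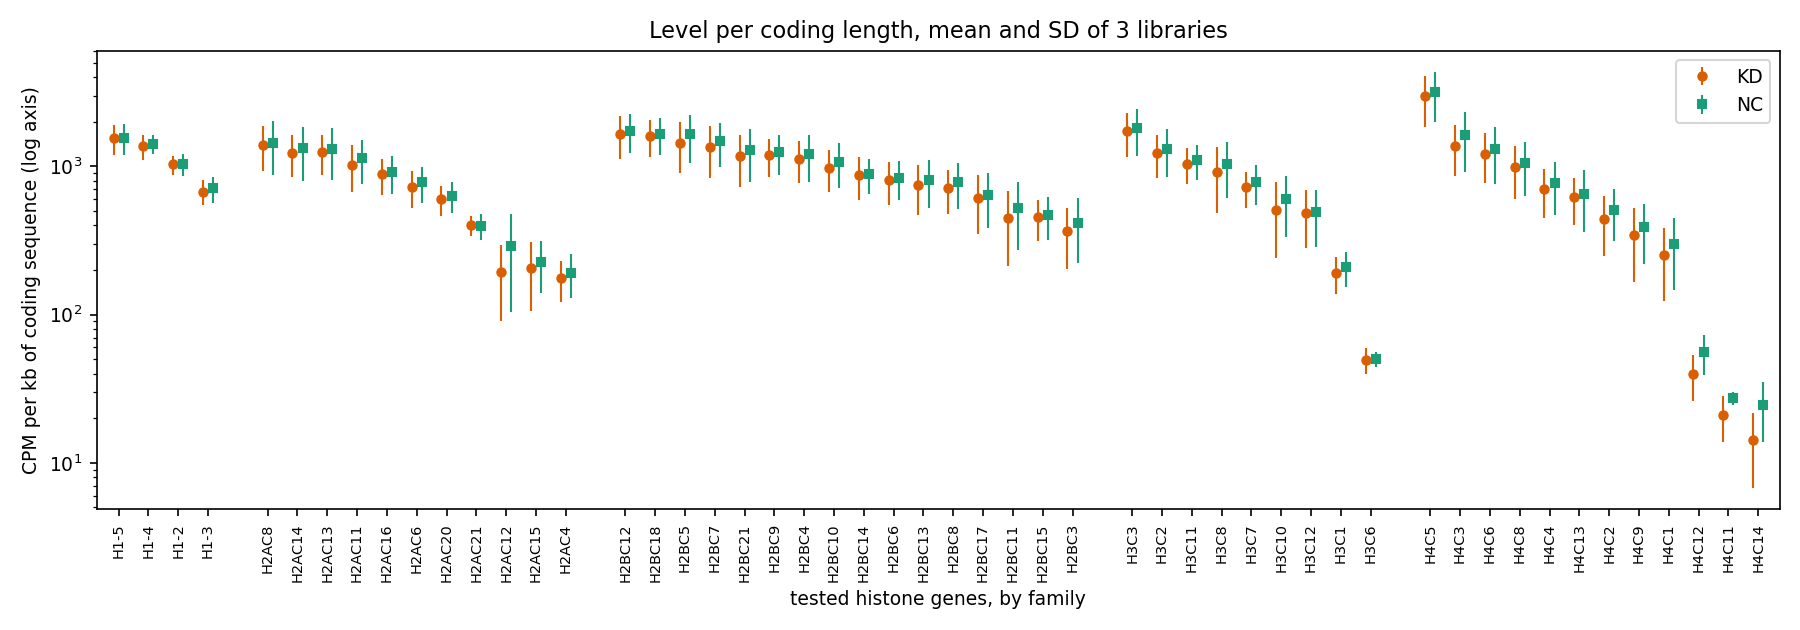
Level of each of the 52 tested histone genes by family, as CPM per kb of coding sequence on a log axis, with KD (circles) left of NC (squares). Points are means and bars SDs of 3 libraries. H4C5 is the highest at 2958 in KD and 3168 in NC, and H4C12, H4C11, H4C14 and H3C6 lie far below the rest.

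The lowest tested genes were H4C14, H4C11, H3C6 and H4C12. H4C14 had 14.3 ± 7.53 CPM per kb in KD and 24.4 ± 10.7 CPM per kb in NC (SD, n = 3 each), so the tested members spanned 130-fold in NC. H4C11 and H4C12 have identical coding sequence over all 309 bases, and reads within it cannot be told apart, so both counts are uncertain. H2AC13 and H2AC14 share an exact coding run of 332 bases, and 16 members in all share a run of at least 75 bases with another member. Among tested members, H2AC15, H2AC21, H2BC6 and H4C14 overlap other genes in GENCODE 29 on the opposite strand, H2AC16 and H3C12 on the same strand, and H2BC5, H2BC15 and H2BC18 on both, so their counts too are uncertain.

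The 4 members that did not pass the filter stayed under 1 CPM in every library. H1-1, an H1 subtype with a narrow tissue distribution, had 4, 0 and 0 counts in KD and 11, 3 and 0 counts in NC. H2AC7 had 5, 3 and 2 counts in KD and 0, 3 and 0 in NC, H2AC17 had 5, 2 and 1 counts in KD and 10, 5 and 9 in NC, and H3C4 had 0 in all KD libraries and 0, 1 and 1 in NC. A count of 0 allows up to 3 counts, or 0.118 to 0.187 CPM across these libraries, for counting error only. H2AC7 and H3C4 lie inside 1 other annotated gene on the same strand, and H2AC17 partly overlaps the locus of H3C12 on the same strand. htseq-count by default gives reads that fall in 2 genes to neither, and the part of this in the counts of these 3 genes was not tested. H2AC16, which also has a same-strand overlap by gene position, had 3909 to 11136 counts per library. Whether its overlap is a like case was not tested.

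H2A and H2B genes that share a divergent start differed in level without a fixed side. In 4 of the 7 pairs with both genes tested the H2A gene was higher per kb in NC, and in 3 the H2B gene. For the pairs of H2AC6, H2AC13 and H2AC14 the difference was smaller than the larger SD of the pair. H2AC8 stood at 1447 ± 578 CPM per kb in NC beside H2BC8 at 779 ± 267 CPM per kb, and H2AC11 at 1135 ± 380 CPM per kb beside H2BC11 at 526 ± 253 CPM per kb (SD, n = 3). In the other direction, H2BC21 stood at 1284 ± 496 CPM per kb beside H2AC20 at 632 ± 146 CPM per kb in NC (SD, n = 3). Pairs were sought only among members with a RefSeq promoter, which H2AC12 lacks, so it is not in these counts. Its GENCODE 29 model begins at 27147129 on the plus strand, and that of H2BC12 at 27146798 on the minus strand. They stood at 291 ± 187 and 1738 ± 505 CPM per kb in NC (SD, n = 3).

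The largest difference among the libraries lay between replicate numbers, not between groups. The 56 genes summed to 11827, 22995 and 18472 CPM in KD and to 11938, 23065 and 21920 CPM in NC. Replicate 1 was low in both groups, and KD replicate 3 lay between replicate 1 and the other 3 libraries. The mean log2 CPM of replicate 1 minus that of replicates 2 and 3 had a median of -0.93 over the 52 tested members, against 0.01 over all tested genes, and was below 0 for every tested member (-1.96 to -0.31). It was -0.24 for the S phase list, -0.23 for the chaperones and -0.30 for the replication-independent variants described below. By family the median was -0.48 for H1, -0.86 for H2A, -0.93 for H2B, -0.91 for H3 and -1.07 for H4. Replicate 1 is also where records outside annotated features were most frequent and the non-B marker sums highest, and the part of either in the offset was not tested.

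**Figure D2:**
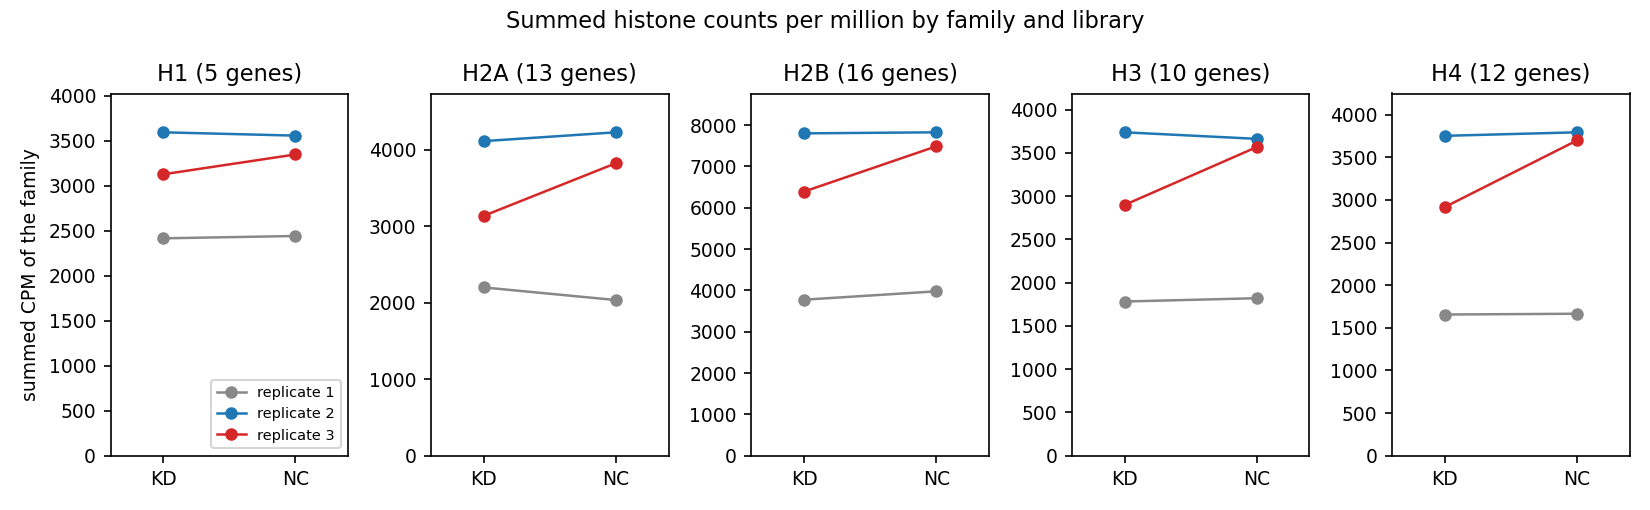
Summed CPM of each histone family in each library, KD left of NC, with libraries of the same replicate number joined by a line; each vertical axis starts at 0. Replicate 1 is low in both groups in all 5 families, replicate 2 is nearly level, and in replicate 3 KD lies below NC, least so for H1.

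Between KD and NC no histone gene passed the test, and the estimates were small and nearly all below 0. With edgeR (quasi-likelihood, p adjusted by Benjamini-Hochberg over 16929 genes) 0 of the 52 tested members were called (0% of all tested genes), and 0 had an unadjusted p under 0.05 (0.307% of all tested genes). DESeq2 also called 0 members, with 0 at an unadjusted p under 0.05. With the replicate number as a block, 0 members were called (0.171% of all tested genes) and 12 had an unadjusted p under 0.05 (4.97% of all tested genes). The estimate was below 0 for 51 of 52 members (51.4% of all tested genes), with a median log2 fold change of -0.10 for the members and -0.00 for all tested genes, and no member had KD and NC libraries that did not overlap (1.77% of all tested genes, KD lower). The 95% interval lay within a 1.5-fold change for 6 of the 52 members, and for 46 with the block, so for most members the libraries leave changes of that size unresolved without the block. Over all 16929 tested genes this held for 8589, and for 11271 with the block. Fits without the block, which give the SEs below unless the block is named, also count the spread between replicate numbers as error. The sign of the median turned in fits without the block that leave out 1 library and so unbalance the low replicate 1. Without KD replicate 1 the median was 0.13, without NC replicate 2 it was 0.06 and without NC replicate 3 it was 0.04. It was -0.39 without KD replicate 2, -0.37 without NC replicate 1 and -0.16 without KD replicate 3. With the block it was -0.13, -0.15 and -0.01 without replicates 1, 2 and 3, with 51, 50 and 31 of 52 members below 0.

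Within replicate numbers the lower values were concentrated in replicate 3. The pairing of KD and NC libraries in replicates 2 and 3 rests on their numbers alone. In replicate 3, 51 of 52 members were lower in KD (49.8% of all tested genes), with a median log2 difference of -0.27. In replicate 1, 32 members were lower (49.0% of all tested genes) with a median of -0.02, and in replicate 2, 34 were lower (50.7%) with a median of -0.01. A difference below -0.2, a limit chosen after the values were seen, was found for 35 members in replicate 3 (21.7% of all tested genes), 6 in replicate 1 (17.1%) and 1 in replicate 2 (19.9%). In 20 of 52 members KD was below NC in all 3 replicate numbers (12.6% of all tested genes), 9 of them H2B and 7 of them H4 genes. KD replicate 3 is the library with 6.79% of counts from mitochondrial ribosomal RNA. With those genes left out the median in replicate 3 was -0.26, with DESeq2 size factors it was -0.26, and with plain gene counts as divisor it was -0.39 beside -0.12 for all tested genes. The part of the 31.5% of records aligned to several places in that library was not tested.

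**Figure D3:**
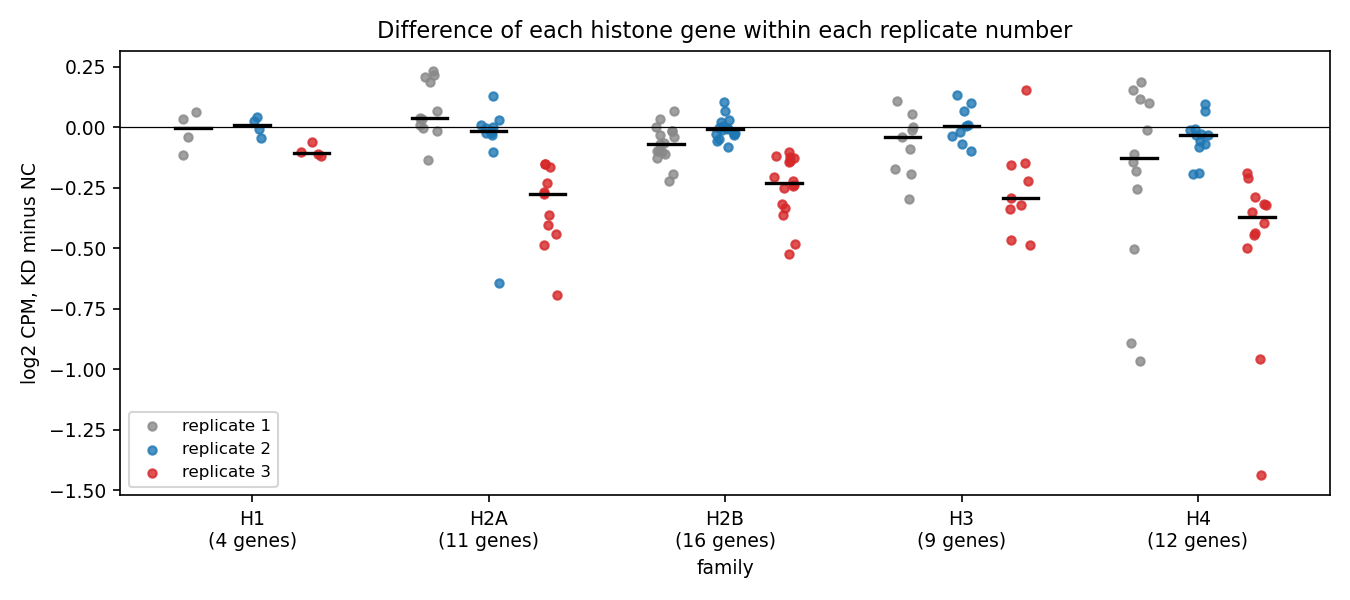
Difference in log2 CPM, KD minus NC, of each tested histone gene (points) within each replicate number, by family; black bars are medians over genes. The medians of replicate 3 run from -0.11 in H1 to -0.37 in H4, while those of replicates 1 and 2 lie between -0.13 and 0.04.

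H1 genes had the family median nearest to 0, a log2 fold change of -0.03 over 4 tested members, all below 0. H1-4 had 712, 1058 and 914 CPM in KD and 771, 1038 and 987 CPM in NC. KD was the lower library in replicates 1 and 3 and the higher in replicate 2. The log2 fold change of H1-4 was -0.06 (SE 0.19), of H1-5 -0.01, of H1-2 -0.01 and of H1-3 -0.07. The median difference of the 4 tested H1 genes was -0.11 in replicate 3, and the summed H1 CPM differed by -0.02, 0.01 and -0.10 on the log2 scale in replicates 1, 2 and 3. All 4 had a 95% interval within a 1.5-fold change.

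H2A genes had a median log2 fold change of -0.10 over 11 tested members, 10 below 0. Their sums were 2199, 4111 and 3135 CPM in KD and 2034, 4226 and 3822 CPM in NC. KD was above NC in replicate 1 and below it in replicates 2 and 3, with log2 differences of 0.11, -0.04 and -0.29. H2AC4 (-0.13) and H2AC6 (-0.10) stood near the family's median, and H2AC21 (0.02) was the 1 member above 0.

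H2AC12 (ENSG00000274997.2, chromosome 6, 27147129 to 27147515, plus strand) had the lowest H2A estimate. It had 30.6, 108 and 84.2 CPM in KD and 31.0, 168 and 136 CPM in NC. KD and NC were level in replicate 1, where the gene was lowest, and KD was lower in replicates 2 and 3, with log2 differences of -0.02, -0.64 and -0.69. The log2 fold change was -0.59 (SE 0.65, 95% interval -2.13 to 0.95) and did not pass (edgeR quasi-likelihood adjusted p 1.00), nor did it with the block (-0.50, adjusted p 0.993). It passed in each of the 3 fits with the block that leave out 1 replicate number, at -0.66 (adjusted p 0.0201), -0.43 (adjusted p 0.000140) and -0.40 (adjusted p 7.66e-05) without replicates 1, 2 and 3 (edgeR quasi-likelihood). Here and below, each fit that leaves out a replicate number holds only 2 libraries per group. These fits called 5 of 16344, 119 of 29982 and 73 of 29966 tested genes without replicates 1, 2 and 3. No member passed with the block and all 3 replicate numbers, so passes in such fits, here and below, are not taken as support. In replicate 2 H2AC12 was the 1 member with a difference below -0.2.

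H2B genes had a median log2 fold change of -0.11 over 16 members, all below 0. Their sums were 3774, 7798 and 6391 CPM in KD and 3976, 7824 and 7484 CPM in NC, which gives log2 differences of -0.08, -0.00 and -0.23. KD was lower in replicates 1 and 3 and level with NC in replicate 2. H2BC11, transcribed from the octamer promoter printed above, had 90.9, 286 and 181 CPM in KD and 99.3, 297 and 260 CPM in NC, a log2 fold change of -0.24 (SE 0.50). H2BC5 had 318, 706 and 614 CPM in KD and 371, 707 and 788 CPM in NC, a log2 fold change of -0.19 (SE 0.37). H2BC21 stood at -0.12, H2BC12 at -0.08 and H2BC18 at -0.04, and none of these passed with all libraries. H2BC11 (-0.35, edgeR quasi-likelihood adjusted p 0.000110) and H2BC5 (-0.31, adjusted p 0.000456) passed in the fit with the block and without replicate 2. That fit leaves out the replicate number in which the H2B sums were level.

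H3 genes had a median log2 fold change of -0.09 over 9 tested members, all below 0. Their sums were 1782, 3737 and 2898 CPM in KD and 1820, 3662 and 3566 CPM in NC. KD was above NC in replicate 2 and below it in replicates 1 and 3, with log2 differences of -0.03, 0.03 and -0.30. H3C10 had 98.6, 319 and 207 CPM in KD and 121, 327 and 286 CPM in NC, a log2 fold change of -0.23 (SE 0.49). With the block it was -0.26 (SE 0.08, edgeR quasi-likelihood adjusted p 0.697), and with the block and without replicate 2 it passed at -0.40 (adjusted p 1.25e-06). H3C3, with 4 CCAAT motifs in the window printed above, stood at -0.06, H3C2 at -0.09, H3C11 at -0.09 and H3C1 at -0.12. H3C6 was the 1 tested member higher in KD in replicate 3, by 0.15, at 15.8, 21.1 and 23.6 CPM in KD and 17.8, 22.1 and 21.2 CPM in NC.

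H4 genes had the lowest family median, -0.19 over 12 members, all below 0. Their sums were 1656, 3752 and 2918 CPM in KD and 1665, 3793 and 3698 CPM in NC, with log2 differences of -0.01, -0.02 and -0.34. The sums were level in replicates 1 and 2 and lower in KD in replicate 3. H4C5 had 524, 1180 and 1038 CPM in KD and 566, 1102 and 1269 CPM in NC, a log2 fold change of -0.10 (SE 0.38). H4C3 stood at -0.24 and H4C6 at -0.10.

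H4C2 and H4C1 were the H4 genes with the smallest p in the fit with the block. H4C2 (chromosome 6, 26026815 to 26027252, minus strand) had 74.4, 193 and 142 CPM in KD and 88.8, 204 and 177 CPM in NC, and was lower in KD in all 3 replicate numbers, with log2 differences of -0.26, -0.08 and -0.32. Its log2 fold change was -0.20 (SE 0.41), and with the block -0.22 (SE 0.05, edgeR quasi-likelihood adjusted p 0.239). H4C1 stood at -0.24 and, with the block, at -0.23 (adjusted p 0.534, edgeR quasi-likelihood). With the block and without replicate 2 both passed, H4C2 at -0.31 (adjusted p 0.00436) and H4C1 at -0.34 (adjusted p 0.00383, edgeR quasi-likelihood).

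The low H4 genes had the largest estimates and few reads behind them. H4C14 had 41, 176 and 77 counts in KD and 74, 160 and 254 counts in NC, or 2.31, 6.91 and 4.04 CPM in KD and 4.60, 6.96 and 11.1 CPM in NC. KD and NC were level in replicate 2. Its log2 fold change was -0.77 (SE 0.48, 95% interval -1.91 to 0.37). H4C14 overlaps another histone gene on the opposite strand, and since the strand setting of the counting is not known the 2 cannot be told apart. H4C12 had 149, 426 and 220 counts in KD and 192, 400 and 514 counts in NC, a log2 fold change of -0.50 (SE 0.31). With the block and without replicate 2, H4C14 passed at -1.30 (adjusted p 2.39e-06) and H4C12 at -0.78 (adjusted p 6.85e-06, edgeR quasi-likelihood).

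The replicate 3 difference was set beside 2 sequence properties of the members. The 17 tested members with a GENCODE model that runs over 100 bases past the stem-loop had a median of -0.25, and the other 35 had one of -0.29. The 15 tested members that share a coding run of at least 75 bases with another member had a median of -0.22, and the other 37 had one of -0.29. Across the 52 members the replicate 3 difference had a Spearman correlation of 0.042 with the longest shared run, 0.448 with mean level and 0.630 with the offset of replicate 1. These are descriptions over genes that share their libraries, and the last 2 share the replicate 3 libraries with the difference.

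Genes that control or handle histone RNA were set beside the members by lists of their role. Of 11 transcription factors and cell cycle genes that act on histone promoters, 0 were called, 7 were below 0 and the median log2 fold change was -0.04. NPAT, the organiser of the histone locus body, had 51.6, 59.3 and 50.3 CPM in KD and 61.1, 62.9 and 60.0 CPM in NC. All 3 KD libraries were below all NC libraries. With edgeR's quasi-likelihood test the adjusted p was 1.00, and 0.606 with the block, at a log2 fold change of -0.19 (SE 0.10). HINFP, which reads the H4 element, had 20.2, 21.4 and 21.3 CPM in KD and 22.5, 27.8 and 23.4 CPM in NC, again without overlap, with an estimate of -0.23 (SE 0.11, edgeR quasi-likelihood adjusted p 1.00, and 0.860 with the block). These 2 of 11 genes stand beside 1.77% of all tested genes in which KD lay below NC without overlap. E2F1, an S phase activator, stood at -0.09.

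Of the 12 genes of 3′ end formation, 11 were tested, 0 were called, 6 were below 0 and the median log2 fold change was -0.01. SLBP had 147, 171 and 157 CPM in KD and 147, 161 and 149 CPM in NC, a log2 fold change of 0.05 (SE 0.10, 95% interval -0.19 to 0.29). The cleavage factor subunits CPSF2 and CPSF3, the second of which is the endonuclease, stood at 0.05 and 0.07, and LSM10 of the U7 particle at 0.10. RNU7-1, the U7 RNA, is listed at 0 in all 6 libraries, and whether these libraries capture such small RNAs was not tested. Of 7 genes of histone RNA decay 0 were called, with a median of -0.02, among them UPF1 at -0.05, LSM1 at 0.10 and the decapping enzyme DCP2 at -0.08.

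Estimates of histone chaperones and S phase genes lay on both sides of 0. Of 10 chaperone genes 0 were called, 4 were below 0 and the median log2 fold change was 0.02. Their median difference in replicate 3 was 0.07. CHAF1B, a subunit of the complex that loads histones on new DNA, stood at 0.13 (SE 0.11, edgeR quasi-likelihood adjusted p 1.00, and 0.888 with the block), ASF1A at 0.13 and NASP at 0.07. Of 21 S phase genes 0 were called, 9 were below 0, the median log2 fold change was 0.01 and the median difference in replicate 3 was 0.04. CDC45, which helps start DNA synthesis, stood at 0.12, and FEN1, which matures the new strand, at 0.08. All 21 had a 95% interval inside a 1.5-fold change, as did 8589 of all 16929 tested genes.

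Replication-independent variants, whose messenger RNAs are polyadenylated, also lay near 0. Of 11 listed, 9 were tested, 0 were called, 2 were below 0 and the median log2 fold change was 0.02. H3-3A had 99.4, 124 and 124 CPM in KD and 95.8, 123 and 128 CPM in NC, a log2 fold change of -0.00 (SE 0.15). H3-3B had 424, 484 and 488 CPM in KD and 419, 485 and 436 CPM in NC, a log2 fold change of 0.06. H2AZ2 and the centromeric CENPA both stood at 0.03. H2AX, whose gene gives both a stem-loop and a polyadenylated RNA, had 150, 287 and 235 CPM in KD and 149, 256 and 272 CPM in NC. Its replicate 1 libraries were low, and its log2 differences were 0.01, 0.16 and -0.21. The log2 fold change of H2AX was -0.01 (SE 0.30).

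**Figure D4:**
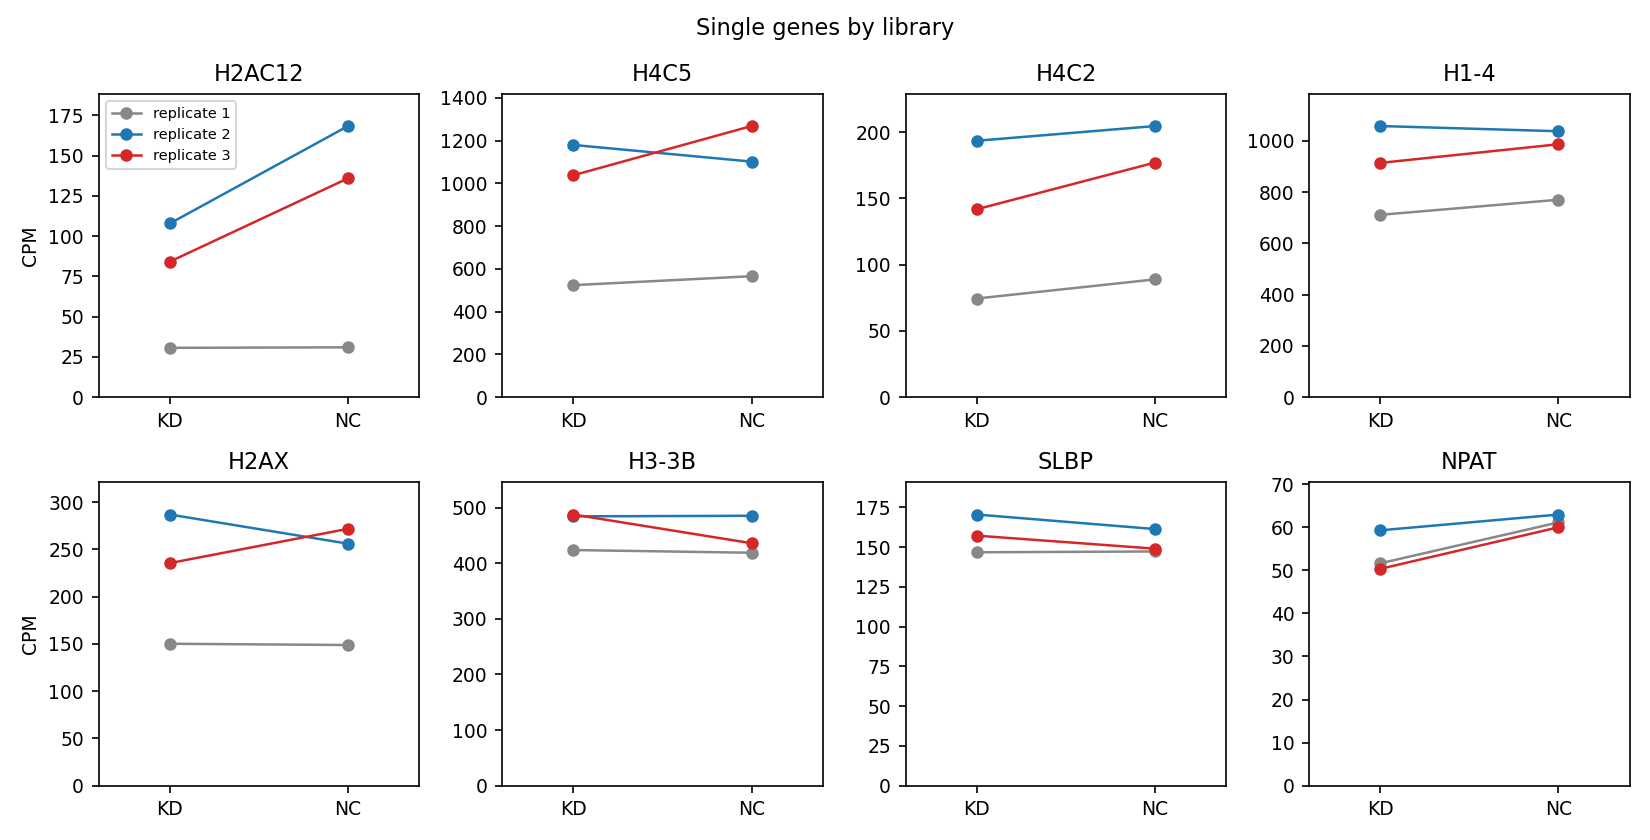
CPM of 8 genes in each library, KD left of NC, with libraries of the same replicate number joined by a line and each vertical axis starting at 0. The histone genes H2AC12, H4C5, H4C2 and H1-4 and the variant H2AX are low in replicate 1, H3-3B and SLBP vary less between replicate numbers, and NPAT is lower in all 3 KD libraries than in any NC library.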

How the data were processed

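What was deposited by the authors for each library is a list of raw read counts per Ensembl gene in the htseq-count layout. The submitters' processing notes name FastQC 0.11.8, STAR 2.7.10a and HTSeq 0.11.1, besides DESeq2, with hg38 as the build. Sources used here do not give the annotation release or strand setting. Summary lines that name no gene were left out of library sizes (no feature 11.3% to 50.03% of records, several places 4.70% to 31.5%, ambiguous 2.58% to 5.94%). Annotation and lengths used here are those of GENCODE 29. Coding length replaced the exon length planned, since models differ in their 3′ ends.

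The test was the quasi-likelihood F test of edgeR 4.0.16 (R 4.3.3) with TMM factors, filterByExpr, robust fit and group as the only term, at an adjusted p under 0.05. Alternatives were DESeq2 1.42.0, its size factors, removal of mitochondrial ribosomal RNAs, no filter, libraries left out and the replicate number as a block. Within-replicate differences use log2 CPM with a prior count of 2. Libraries of a group were compared by chi-square on their counts, which gave 20.2 to 82.0 per degree of freedom, far beyond sampling noise. The numbers were taken to pair the libraries for the block and the within-replicate differences, while the main fit leaves them out. Deviations from the group means correlated at 0.89, 0.62 and 0.61 between KD and NC libraries numbered 1, 2 and 3, above the limit of 0.1. Yet KD replicate 2 with NC replicate 3 reached 0.59, and KD replicate 3 with NC replicate 2 reached 0.55. The correlations set replicate 1 apart but do not tell replicates 2 and 3 from each other. For these the pairing rests on the numbers alone. The fits were checked on simulated data. Intervals cover 95%.

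Members and lists were chosen with earlier results of these data known. Named were, per family, the 3 highest genes per kb, the 2 with the smallest p in either fit and any called, and per other list the 3 with the smallest p with the block, besides SLBP, NPAT, RNU7-1, H2AX, H3-3A and H3-3B. H1-1, H2AC7, H2AC11, H2AC15, H2AC16, H2AC17, H2AC20, H2AC21, H2BC6, H2BC7, H2BC8, H2BC15, H3C4, H3C6, H3C8, H3C12, H4C9 and H4C11 were named after their values were seen. Some genes that this rule names are not reported here.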

Additional observations from a re-analysis of the deposited data

How the results depend on the processing

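Of the alternative values of single genes named by the rule, 806 kept their side of the threshold and 10 became calls. All 10 were lower in KD and came with the replicate number as a block and 1 replicate number left out. Genes named after their values were seen are not in these 2 counts. With all libraries, 0 histone genes were called in any fit, including those with DESeq2 size factors, without mitochondrial ribosomal RNAs and without the filter. With the block and 1 replicate number left out, 1 to 13 were called, all lower in KD, in fits with only 2 libraries per group. Without replicate 1 it was H2AC12, beside 5 of 16344 tested genes, and without replicate 3 H2AC12, beside 73 of 29966. Without replicate 2 there were 13 of 52 tested members, beside 119 of 29982 tested genes. Those 13 were H3C10, H4C14, H4C12, H3C8, H2BC11, H2AC12, H2BC5, H2AC15, H4C1, H4C2, H4C9, H2AC11 and H2BC7. Over all genes, 29 of 16929 tested were called with the block and all libraries, so the sets tested differed in size. The number was also 29 each with the block and without mitochondrial ribosomal RNAs or with DESeq2 size factors, 2 fits chosen after seeing the data. With DESeq2 and the block 39 genes were called, against 0 in every fit without the block. The median log2 fold change of the histone genes, -0.10, ranged from -0.39 to 0.13 with 1 library left out, which unbalances the low replicate 1 libraries. Calls among the other lists stayed at 0 in every fit. The lowest tested gene, H4C14, rests on 41 to 254 counts per library.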
